A study of Mus musculus with 22 samples.

Results

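The genes described are the 8 core members of the Nodal signalling pathway Nodal, Gdf3, Gdf1, Tdgf1, Foxh1, Lefty1, Lefty2 and Cer1, chosen by name among the 32285 genes of the count tables, and all 8 were present. They were measured by single-cell RNA-seq in gastruloids, cultured clumps of mouse embryonic stem cells in which tissues of the gastrulating embryo arise. All gastruloids came from the wild-type line E14Tg2A: 300 cells per well aggregated for 48 h and were then given 3 µM CHIR99021, which blocks GSK3 and so switches on Wnt signalling, so every group described here shares this treatment and no group was left without it. With MULTI-seq, a lipid-anchored DNA barcode was put on all cells of a gastruloid before pooling, so the unit of replication is the single gastruloid, and the question put to the data is how far gastruloids of one batch differ.

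The third MULTI-seq experiment (MULTI-seq 3) held 24 gastruloids of day 3 after aggregation and 16 for each of days 3.5, 4, 4.5 and 5. From MULTI-seq 2 came 11 of day 4 plus 12 of day 4.5, and from MULTI-seq 1 24 of day 5, counting gastruloids of at least 30 cells. The authors sorted whole gastruloids into mesodermal, neural and, at day 5, intermediate classes, which describe the cell makeup of these same gastruloids. Mesodermal and neural gastruloids of MULTI-seq 3 numbered 11 and 13 (day 3), 6 and 10 (day 3.5), 14 and 2 (day 4), 9 and 7 (day 4.5), and 8 and 4 (day 5). In MULTI-seq 2 they numbered 8 and 3 (day 4), then 7 and 5 (day 4.5), and in MULTI-seq 1 7 and 8 (day 5). Cell type names are also the authors', assigned to clusters of the same counts, so levels are compared between types as a description and tested only between days or classes.

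Nodal is a secreted ligand of the TGF-β family that signals through activin receptors and the transcription factors SMAD2 and SMAD3. The EGF-CFC protein Tdgf1 (Cripto) is its co-receptor, the forkhead factor FOXH1 brings the SMADs to DNA, and the ligands GDF1 and GDF3 act through the same receptors and can pair with Nodal. The pathway drives its own ligand and its own feedback inhibitors Lefty1 and Lefty2, Cer1 (Cerberus) binds Nodal and BMP ligands outside the cell, and in the mouse gastrula Nodal signalling is known for forming the primitive streak, mesoderm and endoderm and for acting around the node.

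Positions are in GRCm38, from the GENCODE annotation matched by gene identifier. Nodal (ENSMUSG00000037171) lies at chr10:61417972-61425338 on the plus strand, Gdf3 (ENSMUSG00000030117) at chr6:122605403-122610087 on the minus strand and Gdf1 (ENSMUSG00000109523) at chr8:70329817-70331587 on the plus strand. Tdgf1 (ENSMUSG00000032494) lies at chr9:110939603-110946158 and Foxh1 (ENSMUSG00000033837) at chr15:76668225-76669948, both on the minus strand. Lefty1 (ENSMUSG00000038793), at chr1:180935022-180938400, and Lefty2 (ENSMUSG00000066652), at chr1:180893108-180899103, are neighbours on the plus strand. Cer1 (ENSMUSG00000038192) lies at chr4:82881751-82885148 on the minus strand.

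Promoters are shown for the ligand, its co-receptor and the inhibitor whose levels set the time course described next. They are the 250 bases before the RefSeq start in GRCm38.p6, written 5′ to 3′ on the gene's own strand. RefSeq promoters were matched for 4 of the 8 genes, and Lefty1, Lefty2, Foxh1 and Gdf3 are named only. Capitals mark CAGAC, the SMAD-binding letters, and CAAAG, the core of the TCF/LEF motif that Wnt signalling acts through, on either strand.
Nodal, chr10:61417722-61417971: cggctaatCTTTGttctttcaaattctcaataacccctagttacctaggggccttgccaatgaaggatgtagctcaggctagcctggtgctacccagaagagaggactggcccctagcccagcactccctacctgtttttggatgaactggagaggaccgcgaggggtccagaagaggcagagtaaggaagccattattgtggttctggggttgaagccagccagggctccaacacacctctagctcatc
Tdgf1, chr9:110946159-110946408: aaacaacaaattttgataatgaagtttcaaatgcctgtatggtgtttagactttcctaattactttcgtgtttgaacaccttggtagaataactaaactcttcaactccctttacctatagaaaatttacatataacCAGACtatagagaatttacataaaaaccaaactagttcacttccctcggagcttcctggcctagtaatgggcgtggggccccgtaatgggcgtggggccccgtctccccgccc
Cer1, chr4:82885152-82885401: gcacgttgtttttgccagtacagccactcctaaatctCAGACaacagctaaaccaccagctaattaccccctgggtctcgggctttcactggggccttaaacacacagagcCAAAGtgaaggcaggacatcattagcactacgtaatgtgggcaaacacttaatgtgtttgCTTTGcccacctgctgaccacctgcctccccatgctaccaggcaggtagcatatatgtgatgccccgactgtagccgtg
The Nodal window held 1 TCF/LEF core and 0 SMAD matches, the Tdgf1 window 1 SMAD match, and the Cer1 window 1 SMAD match and 2 TCF/LEF cores. These short motifs are common: of 32851 promoter windows of the same length, 42.2% held CAGAC and 48.6% held CAAAG on at least 1 strand. The FOXH1 motif AATCCACA was in 0.718% of the windows and in none of the 3 shown. A match or its absence describes these letters only.

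Levels are given in CPM: the unique molecular identifiers (UMIs, 1 per captured RNA molecule) of a gene over those of all genes, scaled to a total of 1000000, in the summed cells of a gastruloid or in its cells of 1 type. Gastruloids held 1293296 to 57333371 UMIs, with a median of 143 cells (MULTI-seq 2, day 4) to 854 cells (MULTI-seq 3, day 4). The authors' cell type names went with their markers: 73 of 75 checked marker genes were above the median of the other types, the exceptions being T in Late Nascent Mesoderm and Msgn1 in Late Anterior presomitic mesoderm (PSM). In MULTI-seq 3 the days fall into separate pools (day 3, days 3.5 and 4, days 4.5 and 5), so a difference between days in separate pools cannot be told apart from one between their lanes. Of 76935 barcode sequences of final cells, 732 occurred in 2 or more lanes. Summed over a gastruloid, fewer cells of a type and less RNA per cell cannot be told apart. Gdf1 had 0 UMIs in every lane: the whole gene lies within Cers1 on the same strand and shares all sequence of its 3′ end with it, so its level cannot be read from these counts. The Foxh1 level depended on the lane: it was 3.50 CPM in lane 1 and 0.583 CPM in lane 2 of one MULTI-seq 2 suspension (pool C), a gap of 6.01-fold, reached by 5 of 12408 genes with 100 or more UMIs. Pool C entered no comparison. The lanes of each pool that was compared lay within 1.18-fold of each other for Foxh1 in MULTI-seq 2 and 3. A Foxh1 difference is given as one between days or classes only within such a pool. Across pools or experiments its value is printed as a difference between lanes.

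Over the 5 sampled days of MULTI-seq 3, Nodal and Tdgf1 were highest at day 3 and lower from day 3.5 on, whereas Cer1 was low until day 3.5 and rose at day 4. Lefty1 fell from day 3 to day 3.5, and Lefty2 fell from day 4 to day 4.5. The mix of classes changed between the same days, from 11 mesodermal and 13 neural gastruloids at day 3 to 6 and 10 at day 3.5 and 14 and 2 at day 4. Each comparison of whole gastruloids was therefore repeated within the mesodermal class, a choice made after seeing the data, and these values follow the single members. From day 3 to day 3.5, which were in separate pools, 3 of the 6 tested members changed in edgeR's quasi-likelihood test, all of them lower, where 74.6% of all 11981 genes tested changed and 35.5% were lower. Between days 3.5 and 4, sequenced in 1 pool, 1 of 6 tested members changed, where 60.3% of 13262 genes did and 31.1% were higher. From day 4 to day 4.5, again in separate pools, 4 of 5 were lower, 1 of them the lane-dependent Foxh1, where 66.1% of 12843 genes changed and 33.8% were lower. In the pool of days 4.5 and 5, 0 of 1 tested members changed, where 13.3% of 12298 genes did. That 1 member, Cer1, had an unadjusted p below 0.05.

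The ligand Nodal was measured at 11.5 to 33.7 CPM at day 3 (median 25.2, mean 24.6 ± 5.36 SD, n = 24 gastruloids). It was at 0.911 to 11.7 CPM at day 3.5 (median 4.92, n = 16), at 1.11 to 19.2 at day 4 (median 4.03, n = 16), at 0 to 6.28 at day 4.5 (median 0.440, n = 16) and at 0.093 to 3.44 at day 5 (median 0.753, n = 16). All 16 gastruloids of day 3.5 lay below the day 3 median, although the highest of them reached the lowest of day 3. The fall from day 3 to day 3.5 was 2.19 ± 0.21 on the log2 scale (fitted change -2.19 ± 0.21 SE, edgeR adjusted p = 8.81e-12). Day 4 and day 3.5, with their different mixes of classes, differed by -0.01 ± 0.38 over all gastruloids (adjusted p = 0.985, edgeR), by -0.72 ± 0.37 with class as a term (adjusted p = 0.106) and by -0.62 ± 0.44 in the mesodermal class (adjusted p = 0.257). Nodal fell again from day 4 to day 4.5 (-1.97 ± 0.51, adjusted p = 0.00104, edgeR), with 14 of 16 gastruloids below the day 4 median. MULTI-seq 2, which held both of these days in 1 pool, had Nodal at 0 to 17.0 CPM at day 4 (median 3.84, n = 11) and at a mean of 0.815 CPM at day 4.5 (n = 12), where the gene did not pass the filter on low counts.

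Of the other ligands, Gdf3, which is also known as a gene of pluripotent and germ cells, was rare. Its level in whole gastruloids of MULTI-seq 3 was 0.188 to 2.21 CPM at day 3 (median 0.544) and had medians of 0.232, 0.147, 0.0453 and 0.0882 CPM on the following days. It passed the filter on low counts in 1 whole-gastruloid comparison. Primordial germ cells (PGCs), 1.00% of the cells with a gastruloid call at day 3, gave 47.7% of the Gdf3 UMIs of that day, and at day 5 their 0.14% of cells gave 73.2%. Each PGC was thinned to 5000 UMIs for a comparison at equal depth, and 15.5% of the 97 PGCs then held a Gdf3 UMI (exact 95% interval 8.92 to 24.2%), against 0.0419% of 4773 Late Spinal Cord cells, a type taken as background.

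The co-receptor Tdgf1 fell from day 3 to day 3.5 and from day 4 to day 4.5. It was at 37.5 to 280 CPM at day 3 (median 101, n = 24), 0.631 to 93.2 at day 3.5 (median 14, n = 16), 1.04 to 73.3 at day 4 (median 12.2, n = 16), 0 to 5.53 at day 4.5 (median 0.208, n = 16) and at most 1.39 at day 5 (median 0.233, n = 16). All 16 gastruloids of day 3.5 were below the day 3 median, and all 16 of day 4.5 below the day 4 median. The change from day 3 to day 3.5 was -2.01 ± 0.42 (adjusted p = 5.15e-05, edgeR) and that from day 4 to day 4.5 was -4.23 ± 0.68 (adjusted p = 2.45e-06, edgeR). Between days 3.5 and 4 the difference over all gastruloids was -0.54 ± 0.61 (adjusted p = 0.456, edgeR). Tdgf1 fell there with class as a term (-1.60 ± 0.52, adjusted p = 0.0124).

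The transcription factor gene Foxh1 can be followed within pools only. In the pool of days 3.5 and 4 it was at 0.95 to 4.15 CPM (median 2.25) and 0.494 to 4.76 CPM (median 3.33), and the 2 days did not pass the test (0.36 ± 0.22, adjusted p = 0.154, edgeR). The sign of this difference turned with class as a term (-0.21 ± 0.19, adjusted p = 0.373), and it was 0.05 ± 0.18 in the mesodermal class (adjusted p = 0.835). In the pool of MULTI-seq 2 it was at 3.47 to 10.9 CPM at day 4 (median 6.26, n = 11) and 0.645 to 5.69 CPM at day 4.5 (median 2.25, n = 12). All 12 gastruloids of day 4.5 lay below the day 4 median. That fall was -1.24 ± 0.27 (adjusted p = 0.00629, edgeR), and Foxh1 was the 1 member of 2 tested that changed there, where 7.19% of 11064 genes changed and 4.22% were lower. The larger difference between days 4 and 4.5 of MULTI-seq 3 (-2.19 ± 0.26, adjusted p = 4.25e-09, edgeR) sets lanes at 2.77 to 3.26 CPM over all their cells against lanes at 0.337 to 0.389 CPM, and is a difference between pools.

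The feedback inhibitors Lefty1 and Lefty2 were both near 0 by day 4.5. Lefty1 was at 6.24 to 32.5 CPM at day 3 (median 13.7, n = 24), 0 to 18.3 at day 3.5 (median 6.27, n = 16), 0.068 to 11.1 at day 4 (median 1.31, n = 16), and at medians of 0.219 and 0.199 CPM on the last 2 days. Its change from day 3 to day 3.5 was -1.11 ± 0.32 (adjusted p = 0.00204, edgeR), with 11 of 16 gastruloids below the day 3 median. From day 3.5 to day 4 the difference was -1.31 ± 0.60 (adjusted p = 0.0589), which passed without lane B (0.0464) or lane C (0.0377) of that pool. It also passed with class as a term (-2.07 ± 0.67, adjusted p = 0.0114). Lefty2 was at 2.32 to 38.8 CPM at day 3 (median 8.73), 0 to 51.0 at day 3.5 (median 4.40), 0.068 to 25.2 at day 4 (median 5.41) and 0 to 1.44 at day 4.5 (median 0.157). Gastruloids of day 3.5 thus spanned the widest range, and over all gastruloids neither the day 3 nor the day 4 comparison passed the test (0.19 ± 0.49, adjusted p = 0.736, and -0.78 ± 0.66, adjusted p = 0.312, edgeR). With class as a term the fall of Lefty2 from day 3.5 to day 4 passed (-1.92 ± 0.54, adjusted p = 0.00441). From day 3 to day 3.5 the classes went different ways, at 0.64 ± 0.33 in mesodermal gastruloids (adjusted p = 0.103) and -1.10 ± 0.46 in neural ones (adjusted p = 0.038, edgeR), a difference between classes that was not tested. The change of Lefty2 from day 4 to day 4.5 was -4.53 ± 0.73 (adjusted p = 2.22e-06, edgeR), and all 16 gastruloids of day 4.5 were below the day 4 median.

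Cer1, the inhibitor that binds several ligands, rose at day 4. It was at 0 to 24.5 CPM at day 3 (median 0.673, n = 24), 0 to 6.82 at day 3.5 (median 0.761, n = 16), 0.432 to 106 at day 4 (median 32.8, n = 16), 0.209 to 62.1 at day 4.5 (median 20.8, n = 16) and 2.09 to 23.4 at day 5 (median 8.47, n = 16). The increase from day 3.5 to day 4 was 4.60 ± 0.63 on the log2 scale (adjusted p = 3.54e-07, edgeR), and 15 of 16 gastruloids of day 4 were above the day 3.5 median. The later steps did not pass the test over all gastruloids (-0.74 ± 0.55, adjusted p = 0.235, to day 4.5, and -1.10 ± 0.43, adjusted p = 0.0889, to day 5). The step to day 5 passed with class as a term (-1.01 ± 0.34, adjusted p = 0.0368). MULTI-seq 2 gave a mean of 31.8 ± 39.4 CPM at day 4 (n = 11) and 21.7 ± 18.3 at day 4.5 (n = 12), a difference of -0.64 ± 0.69 (adjusted p = 0.656, edgeR).

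Within the mesodermal class the members fell over more of the steps, and Cer1 still rose at day 4. From day 3 to day 3.5, 3 of 6 tested members were lower in mesodermal gastruloids, Nodal and Tdgf1 among them, where 66.7% of 12341 genes changed and 32.6% were lower. For Lefty1 only the medians are given at this step. From day 3.5 to day 4, 3 were lower and 1 higher of 6 tested, where 47.5% of 14549 genes changed, 23.8% higher and 23.7% lower. From day 4 to day 4.5, 5 of 6 were lower, Foxh1 across pools among them, where 59.9% changed and 30.7% were lower. In MULTI-seq 2, with days 4 and 4.5 in 1 pool, 4 of 6 were lower, where 7.46% of 11262 genes changed and 4.32% were lower. From day 4.5 to day 5, 1 of 2 was lower, where 6.36% changed and 3.16% were lower.

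Tdgf1 in mesodermal gastruloids had medians of 151, 69.9 and 12.9 CPM at days 3, 3.5 and 4 and fell at both steps (-1.45 ± 0.25, adjusted p = 9.83e-05, and -1.53 ± 0.59, adjusted p = 0.0386, edgeR). Days 3 and 3.5 did not overlap, and 13 of 14 gastruloids of day 4 lay below the day 3.5 median. Lefty2 had medians of 15.7, 34.4 and 7.65 CPM on these days, and its fall to day 4 passed (-1.85 ± 0.61, adjusted p = 0.0185, edgeR), and all 14 gastruloids of day 4 lay below the day 3.5 median. Lefty1, with medians of 15.2, 12.0 and 1.74 CPM, also fell to day 4 (-1.80 ± 0.69, adjusted p = 0.0382, edgeR). Nodal fell from 19.0 to 29.5 CPM at day 3 to 7.08 to 11.7 at day 3.5 with no overlap (-1.57 ± 0.10, adjusted p = 1.44e-12, edgeR). Cer1 rose from a median of 1.99 CPM at day 3.5 to 45.0 at day 4 (3.87 ± 0.83, adjusted p = 0.00082, edgeR) and fell from 37.4 at day 4.5 to 15.9 at day 5 (-1.33 ± 0.34, adjusted p = 0.0313, edgeR).

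In mesodermal gastruloids of MULTI-seq 2, Nodal went from 2.88 to 17.0 CPM at day 4 (median 8.33, n = 8) to 0.467 to 1.91 at day 4.5 (median 1.22, n = 7), with no overlap (-2.58 ± 0.40, adjusted p = 0.00157, edgeR). Tdgf1 went from a median of 18.6 to 0.883 CPM (-4.04 ± 0.73, adjusted p = 0.00593) and Lefty2 from 7.70 to 1.17 (-3.22 ± 0.70, 0.0147) in edgeR. Foxh1 fell too (-0.99 ± 0.21, adjusted p = 0.00843), while Lefty1 (-2.25 ± 0.89, 0.148) and Cer1 (-0.45 ± 0.61, 0.725) did not pass.

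**Figure D1:**
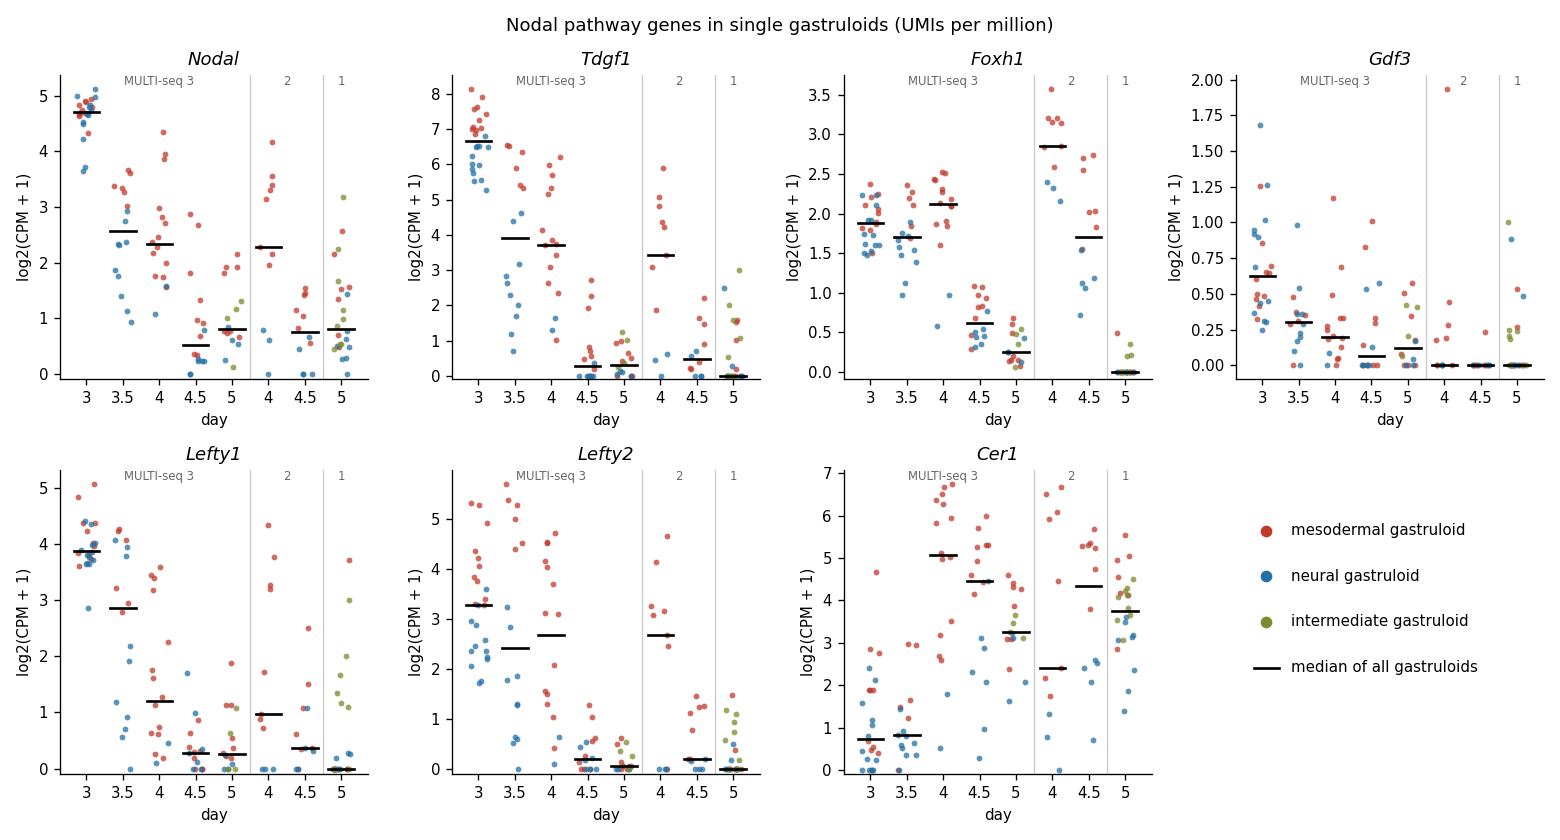
Level of each member but Gdf1 in every gastruloid by day after aggregation, as log2(CPM + 1). Each panel shows MULTI-seq 3 first, then MULTI-seq 2 (days 4 and 4.5) and MULTI-seq 1 (day 5). Points are gastruloids coloured by class (red mesodermal, blue neural, olive intermediate), and a short black line marks the median of all gastruloids of a group. In MULTI-seq 3, Nodal and Tdgf1 start at their highest medians, 25.2 and 101 CPM, at day 3. Cer1 reaches its highest median there, 32.8 CPM, at day 4.

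Between MULTI-seq experiments, at days 4, 4.5 and 5, Foxh1 alone of the tested members passed the test. At days 4.5 and 5 only Cer1 was tested. The 10X experiment, whose lanes had no gastruloid calls, was not tested against them. Its day 3 lane had Lefty2 at 96.5 CPM over all final cells, against 10.9 and 11.7 in lanes A and B of MULTI-seq 3. Lefty1 was at 75 against 15.4 and 15.3, Tdgf1 at 263 against 116 and 112, and Nodal at 54.4 against 25.3 and 24.4. Cer1 was also higher there, Foxh1 lower, and Gdf3 between lanes A and B. At day 4, 1 of 6 tested members differed between MULTI-seq 3 and MULTI-seq 2, where 46.1% of 13713 genes did, and this was Foxh1, whose level depends on the lane. Nodal differed by -0.16 ± 0.49 (adjusted p = 0.827), Cer1 by 0.15 ± 0.69 (0.887) and Tdgf1 by 0.30 ± 0.68 (0.757) in edgeR, with standard errors too wide to show that the levels are equal. Of 1 member tested at day 4.5, 0 differed, where 42.4% of genes did (Cer1 0.04 ± 0.55, adjusted p = 0.971), and of 1 tested between MULTI-seq 3 and MULTI-seq 1 at day 5, 0 differed, where 63.6% did (Cer1 -0.28 ± 0.29, adjusted p = 0.419).

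Levels by type are means over gastruloids with at least 10 cells of that type, over all experiments and days, for 22 types. Averaged over all days, Nodal was highest in Notochord, the midline rod that forms from the node (74.5 ± 29.4 CPM, range 31.2 to 129, median 71.1, n = 18 gastruloids), followed by Primitive Streak (37.2 ± 28.8, range 4.46 to 156, median 33.1, n = 46) and Anterior Primitive Streak (15.2, 29.4, 19.3 and 29.1 CPM in its 4 gastruloids). Early Nascent Mesoderm followed at 13.3 ± 5.71 CPM (n = 30), Mature Endoderm at 10.1 ± 10.5 (n = 46) and Early Posterior PSM at 6.83 ± 5.28 (n = 52). The means fell off in steps smaller than the spread between gastruloids: for Nodal, as for Lefty1, Lefty2, Cer1, Foxh1 and Gdf3, 0 neighbours in the order of types differed by more than their standard deviations, and for Tdgf1 1 pair did. Nodal in Notochord was at 41.5, 102 and 86.8 CPM in the 3 gastruloids of day 3.5, at 45.3 to 129 at day 4 (median 72.8, n = 7) and at 50.4, 77.6 and 31.2 in the 3 of day 5 of MULTI-seq 3, with Nodal UMIs in each of these gastruloids. The types are sampled on different days, and the order varied with the day. At day 4 of MULTI-seq 3 the mean was 91.8 ± 58.8 CPM in Primitive Streak (n = 5) and 80.7 ± 33.2 in Notochord (n = 7), 2 values closer than their spread.

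Tdgf1 stood apart by type. It was at 623, 566, 568 and 549 CPM in the 4 gastruloids with enough Anterior Primitive Streak cells and at 191 to 619 CPM in Early Nascent Mesoderm, the first mesoderm to leave the streak (median 523, mean 487 ± 105, n = 30). Late Nascent Mesoderm came next at 75.1 ± 90.6 CPM (n = 19), the 1 neighbouring step beyond the spread, and Primitive Streak at 53.7 ± 40.7 (n = 46). In Early Nascent Mesoderm Tdgf1 was at 511 ± 72.2 CPM at day 3, 464 ± 139 at day 3.5 and 581, 369, 450 and 191 in the 4 gastruloids of day 4, and in Mature Endoderm at 63.4 ± 49.9, 11.1 ± 12.8 and 1.62 ± 2.40 CPM at days 4, 4.5 and 5. Days 4 and 4.5 of Mature Endoderm, in separate pools, did not pass the test (-2.17 ± 0.94, adjusted p = 0.0978, edgeR), where 26.5% of genes did.

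Lefty1 and Lefty2 had different places. Averaged over all days, Lefty1 was at 51.0, 232, 61.0 and 187 CPM in the 4 gastruloids with Anterior Primitive Streak, at 44.0 ± 41.0 in Notochord (n = 18) and 26.0 ± 34.1 in Primitive Streak (n = 46), the same 3 types as for Nodal in another order. As for Nodal, the types were sampled on different days, and at day 4 of MULTI-seq 3 Lefty1 in Primitive Streak was at 80.2 ± 69.7 CPM (n = 5). Lefty2 was at 121 ± 93.5 CPM in Early Nascent Mesoderm (n = 30), 44.1 ± 58.1 in Late Nascent Mesoderm (n = 19), 27.5 ± 11.2 in Anterior Primitive Streak (n = 4) and 15.2 ± 11.9 in Early Posterior PSM (n = 52). The share of Lefty1 among the UMIs of both Lefty genes differed between types. It was 82.9% in Primitive Streak (exact 95% interval 81.5 to 84.2%, of 2985 UMIs) and 86.5% in Notochord (84.2 to 88.6%, of 961 UMIs), but 10.6% in Early Nascent Mesoderm (9.61 to 11.6%, of 3924 UMIs) and 0.834% in Late Nascent Mesoderm (0.495 to 1.32%, of 2157 UMIs). Across single gastruloids with at least 10 Lefty UMIs the share was 51.4 to 95.8% in Primitive Streak (n = 38) and 0 to 50.0% in Early Nascent Mesoderm (n = 30), 2 ranges that do not overlap. In Notochord it was 21.9 to 100% (n = 12), a range that overlaps that of Early Nascent Mesoderm, and in Late Nascent Mesoderm 0 to 9.09% (n = 14). Early Posterior PSM lay between them at 27.0%, with single gastruloids from 0 to 84.5% (n = 34). The intervals cover counting error only, and 2.44% of the sequence of the Lefty1 3′ end is shared with Lefty2.

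**Figure D2:**
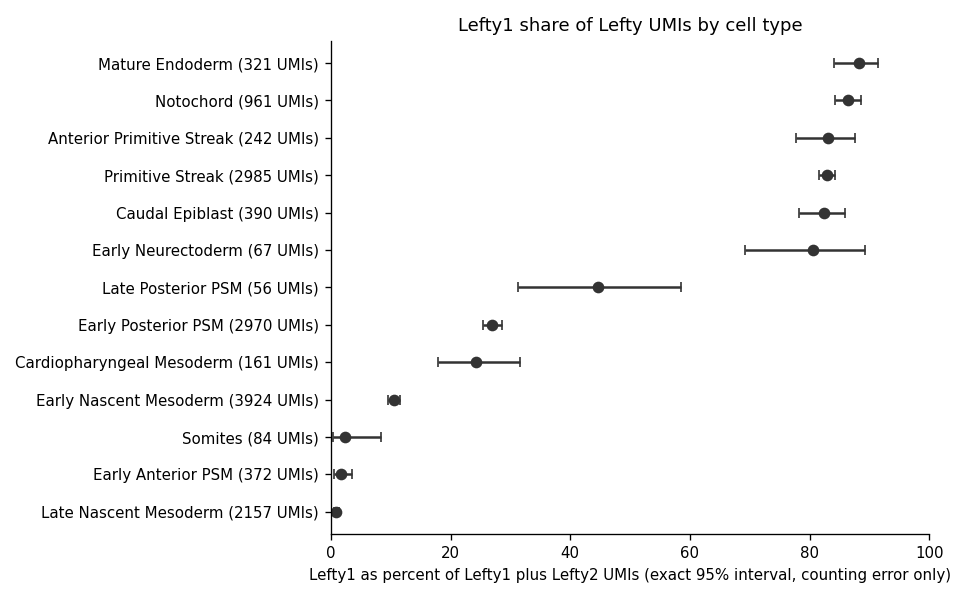
Percent of Lefty UMIs that are Lefty1 in 13 cell types, with exact 95% intervals and the number of Lefty UMIs beside each type. Streak, notochord and endoderm types lie above 80%, and Early and Late Nascent Mesoderm at 10.6 and 0.834%.

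Cer1 was mostly in mesoderm that had left the streak. Averaged over all days, it was highest in Head Mesoderm (163 ± 148 CPM, range 4.37 to 523, median 117, n = 27) and Late Nascent Mesoderm (143 ± 127, n = 19), then Somites, the segmented mesoderm (118 ± 57.9, n = 55), Late Anterior PSM (101 ± 50.9, n = 57) and Early Anterior PSM (70.2 ± 43.3, n = 22). Head Mesoderm was at 173 to 429 CPM at day 4 (median 262, n = 7), at 98.2, 231 and 523 CPM in the 3 gastruloids of day 4.5, and at 4.37 to 124 CPM at day 5 of MULTI-seq 3 (median 47.5, n = 7). Day 4 and day 5 did not overlap there; they were in separate pools and were not tested. At day 5 the order of the types was another one, with Somites at 74.2 ± 31.0 CPM (n = 12), Late Anterior PSM at 69.7 ± 20.9 (n = 15) and Head Mesoderm at 58.7 ± 50.9 (n = 7), values within their spread. Foxh1 was spread over mesoderm types, from 7.94 ± 4.36 CPM in Late Nascent Mesoderm (n = 19) and 6.25 ± 4.01 in Early Anterior PSM (n = 22) to 2.45 ± 1.45 in Primitive Streak (n = 46), and every such mean includes lanes of different Foxh1 yield.

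**Figure D3:**
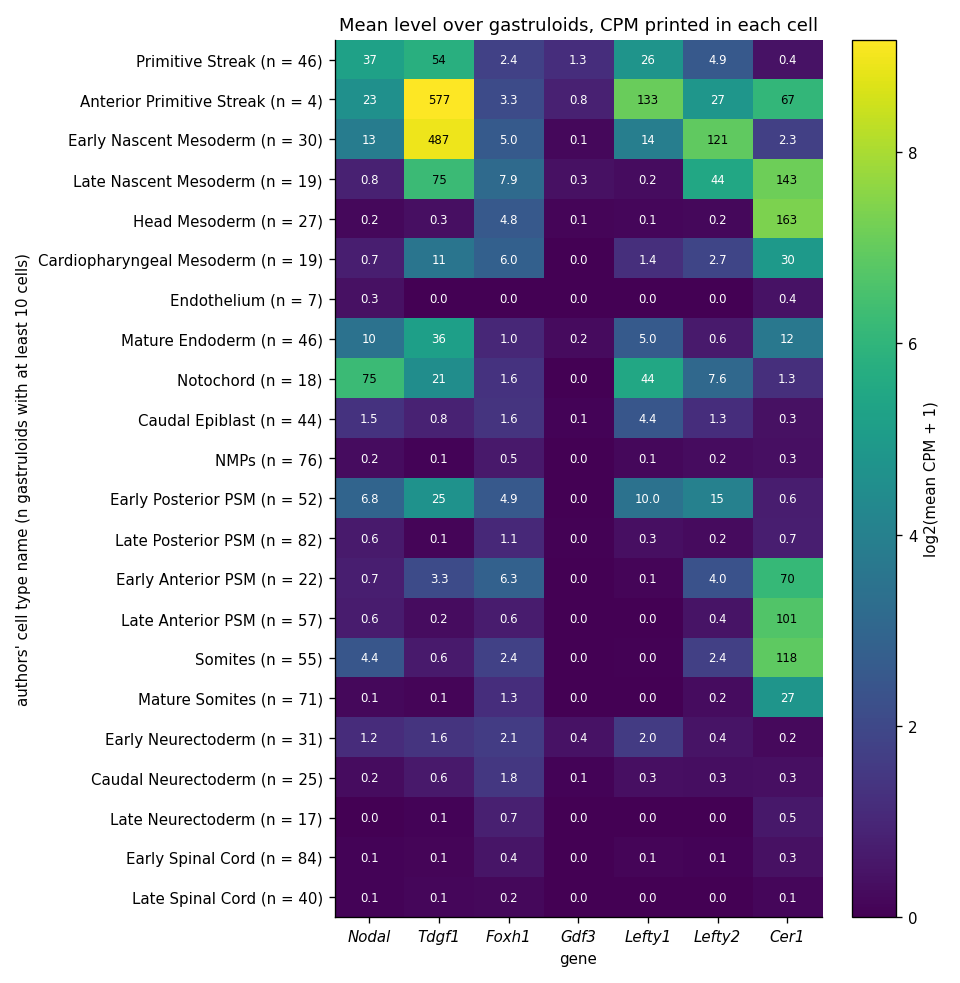
Heat map of the mean level of 7 members in 22 cell types, coloured by log2(mean CPM + 1) with the mean CPM printed in each cell; means are over gastruloids with at least 10 cells of the type. Nodal and Lefty1 share Notochord and the streak types, Lefty2 and Tdgf1 share Early Nascent Mesoderm, and Cer1 is high in Head Mesoderm, Late Nascent Mesoderm and somitic types.

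Shares of cells with a UMI, each cell thinned to 5000 UMIs, set the types side by side at equal depth, though the types were sampled on different days. Late Spinal Cord, the background type, had enough cells for a within-type test only between days 4.5 and 5 of MULTI-seq 3. Its shares were not shown to stand for the background of earlier days and pools. A Nodal UMI was found in 20.1% of 876 Notochord cells (exact 95% interval 17.5 to 22.9%; median 23251.5 UMIs before thinning) and 14.2% of 4035 Primitive Streak cells (13.2 to 15.4%; median 29672), against 0.0629% of 4773 Late Spinal Cord cells (median 25005). Tdgf1 was found in 80.6% of 916 Early Nascent Mesoderm cells (77.9 to 83.1%) and 77.1% of 179 Anterior Primitive Streak cells (70.2 to 83.0%), against 0.0838% in Late Spinal Cord. Lefty2 was found in 28.3% of Early Nascent Mesoderm cells (25.4 to 31.3%), against 0 of 4773 Late Spinal Cord cells, which at the limit of 3 counts allows a share of up to 0.0629%. Cer1 was found in 45.6% of 1348 Head Mesoderm cells (42.9 to 48.3%) and 33.5% of 1340 Somites cells (31.0 to 36.1%), against 0.0629% in Late Spinal Cord. Thinning left out 189 of 53730 cells. Over all members and types, 23 of 200 shares were at or above 10%, 43 without thinning and 15 at 3000 UMIs.

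The cells that supplied each transcript changed with the days. Primitive Streak cells, 56.8% of the cells at day 3 of MULTI-seq 3, gave 82.1% of all Nodal UMIs, then 45.2% at day 3.5 (12.0% of cells) and 13.9% at day 4 (0.902% of cells). Notochord took over as the largest source: 34.9% of Nodal UMIs at day 4 from 3.08% of cells, and 52.0% at day 5 from 1.25% of cells. Lefty1 moved in the same way, from 58.1% in Primitive Streak at day 3 to 41.7% in Notochord at day 4. Lefty2 came from Early Nascent Mesoderm at day 3 (70.9% of UMIs from 11.4% of cells) and day 3.5 (48.7% from 3.57%), and from Late Nascent Mesoderm at day 4 (44.8% from 9.72%). Tdgf1 had the same 2 main sources, at 53.3, 44.9 and 42.9% on these days. Cer1 UMIs at day 3 came from Anterior Primitive Streak (68.6% from 2.37% of cells) and Mature Endoderm (23.2%), and at day 4 from Head Mesoderm (30.7% from 5.31% of cells) and Late Nascent Mesoderm (21.4%), so the gene was in other cells when its level rose. At day 5 Late Anterior PSM (31.4%) and Mature Somites (24.4%) held most of it.

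**Figure D4:**
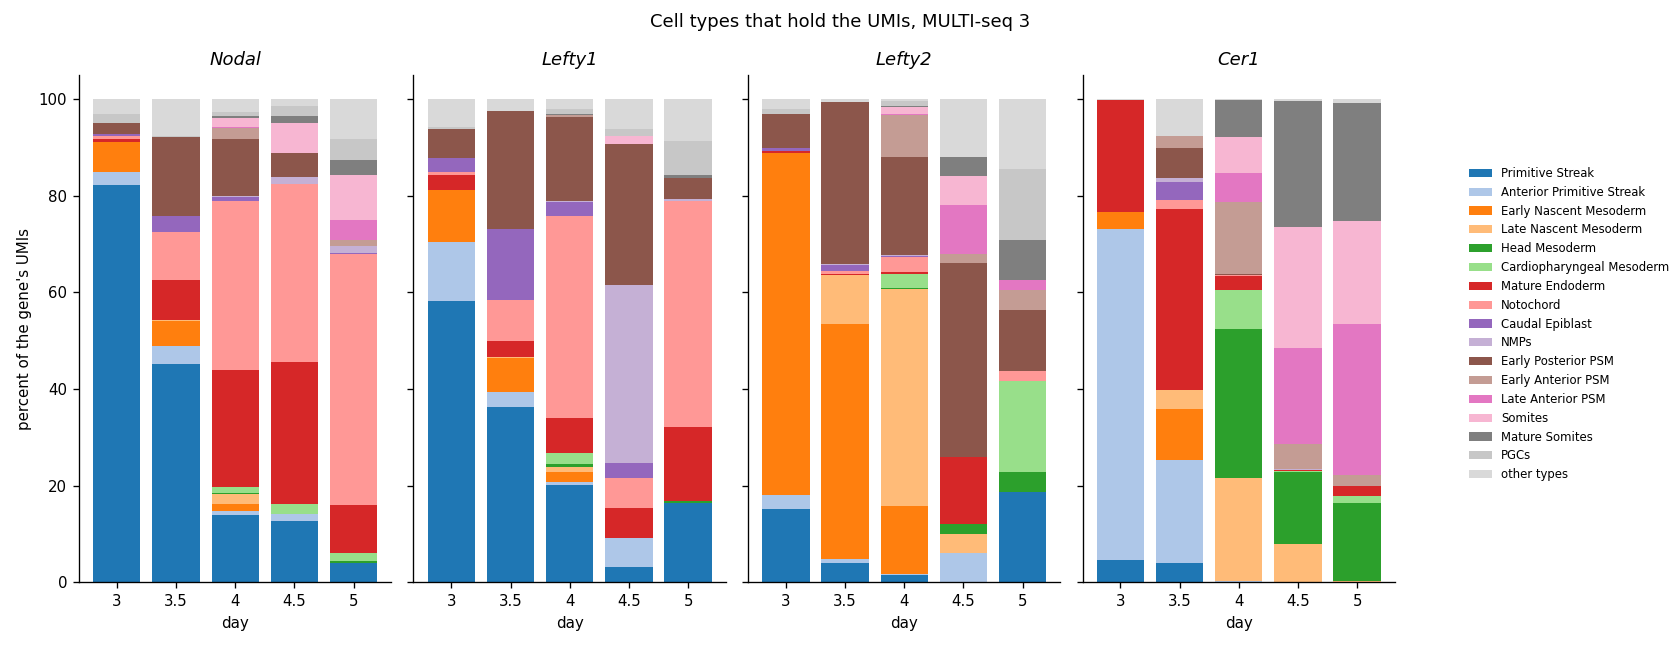
Percent of the UMIs of Nodal, Lefty1, Lefty2 and Cer1 from each cell type by day of MULTI-seq 3, as stacked bars that sum to 100%. The Primitive Streak part of Nodal shrinks from 82.1% at day 3 to 13.9% at day 4 while the Notochord part reaches 52.0% at day 5.

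Wherever a member passed the test between the classes, in all 8 comparisons of neural with mesodermal gastruloids, it was lower in neural gastruloids. At day 3, 2 of 5 tested members differed between the classes, both lower in neural gastruloids, where 14.3% of 11572 genes differed and 7.81% were lower. Lefty2 was at 8.71 to 38.8 CPM in mesodermal gastruloids (median 15.7, n = 11) and 2.32 to 11.2 in neural ones (median 4.16, n = 13). Tdgf1 was at 115 to 280 CPM (median 151) and 37.5 to 111 (median 62.9), and its classes did not overlap. The differences, neural against mesodermal, were -1.96 ± 0.32 for Lefty2 (adjusted p = 0.000151) and -1.30 ± 0.18 for Tdgf1 (adjusted p = 3e-05) in edgeR. Nodal itself was at 19.0 to 29.5 CPM (median 25.6) and 11.5 to 33.7 (median 24.6), a difference of -0.16 ± 0.14 (adjusted p = 0.521) with the neural class on both sides of the mesodermal one.

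At day 3.5 the classes differed in 5 of 6 tested members, all 5 lower in neural gastruloids, where 41.6% of 12829 genes differed and 21.2% were lower. Nodal was at 7.08 to 11.7 CPM in mesodermal gastruloids (median 9.29, n = 6) and 0.911 to 6.58 in neural ones (median 3.30, n = 10). Lefty2 was at 20.1 to 51.0 (median 34.4) and 0 to 8.41 (median 1.44), and Tdgf1 at 39.1 to 93.2 (median 69.9) and 0.631 to 23.8 (median 4.57). None of these 3 genes overlapped between the classes. Here as elsewhere in the text, the share of all genes without overlap is not given. The differences were -1.53 ± 0.30 for Nodal (adjusted p = 0.000786), -3.68 ± 0.47 for Lefty2 (2.94e-05), -3.11 ± 0.51 for Tdgf1 (0.000205), -2.30 ± 0.58 for Cer1 (0.00496) and -0.83 ± 0.19 for Foxh1 (0.00126) in edgeR. Lefty1 overlapped widely, at 5.87 to 18.3 CPM (median 12.0) and 0 to 15.8 (median 2.03), and did not pass (-1.25 ± 0.66, adjusted p = 0.144, and 0.0274 without lane A). The median log2 difference of the 6 members was -1.91, against 0.00 over all genes.

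On the later days Cer1 passed in 3 of 4 class comparisons, in 2 of which it was the only member tested. At day 4.5 of MULTI-seq 3 it was at 16.7 to 62.1 CPM in mesodermal gastruloids (median 37.4, n = 9) and 0.209 to 20.8 in neural ones (median 3.93, n = 7), a difference of -2.66 ± 0.53 (adjusted p = 0.000894, edgeR), the 1 of 1 member tested where 45.6% of genes differed and 23.2% were lower. In MULTI-seq 2 on the same day it was at 12.9 to 50.0 CPM (median 38.1, n = 7) and at 4.72, 4.99, 4.28, 3.18 and 0.645 CPM in the 5 neural gastruloids, with no overlap. That difference was -3.20 ± 0.44 (adjusted p = 0.000247, edgeR), and with Foxh1 (-1.67 ± 0.34, adjusted p = 0.000462) 2 of 2 tested members differed, where 37.8% of genes did and 19.8% were lower. At day 5 of MULTI-seq 1 Cer1 was at 6.19 to 45.7 CPM (median 22.4, n = 7) and 1.61 to 11.2 (median 7.53, n = 8), with the 9 intermediate gastruloids at 7.42 to 21.7 (median 15.8). Cer1, the 1 of 1 member tested there, differed by -1.94 ± 0.37 (adjusted p = 0.00116, edgeR), where 29.5% of genes differed and 15.4% were lower.

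At day 5 of MULTI-seq 3, 1 of 2 tested members differed, where 40.4% of genes did and 21.3% were lower. Nodal was at 0.592 to 3.44 CPM in 8 mesodermal gastruloids (median 1.61) and at 0.185, 0.797, 0.528 and 0.459 CPM in the 4 neural ones (-1.86 ± 0.58, adjusted p = 0.0209, edgeR). The call was lost without lane B (0.0535) and without neural replicate 1 (0.0737) or 3 (0.0502). Cer1 was at 4.18 to 23.4 CPM (median 15.9) and at 3.23, 2.08, 7.70 and 8.44 CPM (-1.48 ± 0.55, adjusted p = 0.0521). The class difference at day 5 was not shown to vary between MULTI-seq 1 and MULTI-seq 3: of the 2 members tested for it, 0 passed (Nodal 0.27 ± 0.88, adjusted p = 0.982, Cer1 0.46 ± 0.66, adjusted p = 0.890), as did 0.0% of 12412 genes in edgeR, of which 1186 had an unadjusted p below 0.05, and 0 members passed in DESeq2.

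Day 4 rests on few neural gastruloids. In MULTI-seq 3, 2 of 7 tested members differed, where 38.9% of genes did and 19.2% were lower. Cer1 was at 5.01 to 106 CPM in 14 mesodermal gastruloids (median 45.0) and at 2.46 and 0.432 CPM in the 2 neural ones (-5.12 ± 1.65, adjusted p = 0.0225, edgeR), a call lost without either of the 2 (0.102 and 0.171). Foxh1 was at 2.04 to 4.76 CPM and at 0.956 and 0.494 (-2.29 ± 0.37, adjusted p = 0.000151, edgeR). Nodal, Lefty1, Lefty2, Tdgf1 and Gdf3 had adjusted p of 0.112, 0.157, 0.0773, 0.0807 and 0.266 in edgeR, and 6 of 7 members passed in DESeq2.

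In MULTI-seq 2 at day 4, 2 of 6 tested members differed, where 19.7% of genes did and 9.64% were lower. Nodal was at 2.88 to 17.0 CPM in 8 mesodermal gastruloids (median 8.33) and at 0.534, 0.727 and 0 CPM in the 3 neural ones (-3.95 ± 1.01, adjusted p = 0.0193, edgeR). Foxh1 was at 4.99 to 10.9 CPM (median 7.88) and at 4.27, 4.00 and 3.47 (-0.93 ± 0.28, adjusted p = 0.0274, edgeR). Neither gene overlapped between the classes, yet 0 of 6 passed without either lane or without any 1 of the 3 neural gastruloids, and 5 passed in DESeq2. The 3 neural gastruloids held 3 Nodal UMIs against 267 in the mesodermal ones, a ratio of CPM of 15.2 (counting interval 5.15 to 74.2), and 2 Tdgf1 UMIs against 671 (57.3, interval 15.8 to 474). Lefty1 and Lefty2 had 0 UMIs in all 3, against 179 and 304, and were at least 10.2-fold and 17.3-fold higher in mesodermal gastruloids when the 0 is set to 3 counts over the group. Their adjusted p were 0.206 and 0.127 in edgeR.

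Makeup moved with these class differences. Early Nascent Mesoderm, the main source of Lefty2 and Tdgf1, was 17.8 ± 5.23% of the cells in mesodermal and 5.43 ± 1.95% in neural gastruloids at day 3, and 6.90 ± 2.55% and 0.36 ± 0.68% at day 3.5. Primitive Streak, the main source of Nodal, made up 55.5% and 58.4% at day 3 and 10.9% and 14.6% at day 3.5. The part of makeup in the class differences was not tested as such, but the same classes were compared within single types. Of 21 such tests of members, in 9 fits with a member tested, 0 passed in edgeR and 6 had an unadjusted p below 0.05. In Early Nascent Mesoderm at day 3, Tdgf1 was at 532 ± 68.0 CPM in mesodermal and 486 ± 72.8 in neural gastruloids (-0.13 log2) and Lefty2 at 72.8 ± 35.8 and 55.6 ± 36.7 (-0.48 log2), where 0.0% of 6542 genes passed. In Primitive Streak at day 3 Nodal was at 37.2 ± 6.80 and 34.3 ± 7.74 CPM (-0.10 log2, adjusted p = 0.873, edgeR), where 0.756% of genes passed. Lefty2 differed in these cells by -0.52 ± 0.18 (adjusted p = 0.194), Tdgf1 by -0.38 ± 0.15 (0.35) and Lefty1 by 0.14 ± 0.10 (0.69) in edgeR. At day 3.5 Nodal in Primitive Streak was at 34.6 ± 15.6 and 13.8 ± 7.28 CPM (-1.19 ± 0.35, adjusted p = 0.222), where 0.457% passed, so a difference in these cells was neither called nor shown to be absent. Lefty1 in Caudal Epiblast at day 3.5 was at 11.5 ± 4.68 and 1.87 ± 2.58 CPM (-2.06 ± 0.54, adjusted p = 0.0644, edgeR), where 2.35% passed, and in Early Posterior PSM, where 1.34% passed, Lefty2 was at 24.9 ± 3.06 and 15.2 ± 12.2 (-0.47 ± 0.32, adjusted p = 0.577). The other 4 members tested in these cells had fitted differences of the opposite sign or near 0, at 1.11 for Lefty1, 0.20 for Foxh1, 0.05 for Tdgf1 and 0.0056 for Nodal, and none passed. Cer1 in Mature Somites was at 33.2 ± 14.3 and 16.7 ± 12.0 CPM at day 4.5 of MULTI-seq 3 (-0.95 ± 0.72, adjusted p = 0.697), where 1.23% passed. At day 5 its means in these cells were higher in neural gastruloids, at 8.23 ± 2.97 and 13.4 ± 2.72 CPM in MULTI-seq 3 (0.61 ± 0.30, adjusted p = 0.25, with 10.0% of genes passing) and 18.1 ± 8.87 and 25.6 ± 22.4 in MULTI-seq 1 (0.41 ± 0.48, adjusted p = 0.733, with 5.02% passing). Over whole gastruloids they were lower.

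Within single types, days did differ. These fits had no term for class, although the mix of classes differed between days. In the pool of days 3.5 and 4, Nodal in Primitive Streak cells was at 4.46 to 59.3 CPM in 16 gastruloids of day 3.5 (median 19.8, mean 21.6 ± 14.9) and at 133, 63.5, 99.9 and 156 CPM in mesodermal gastruloids 4, 6, 11 and 13 and 6.93 CPM in neural gastruloid 14 of day 4, the 5 with 10 or more such cells. The 4 mesodermal gastruloids of day 4 were above all 16 of day 3.5, and the neural one was near the bottom of their range. Nodal, Lefty1 and Tdgf1 were the members tested in these cells, and all had a fitted rise of similar size. Nodal alone passed the test (2.15 ± 0.43 on the log2 scale, adjusted p = 0.00492, edgeR), where 5.19% of 8262 genes changed and 2.42% were higher. Its call held without each of the 5 in turn. Lefty1 was at 156, 139, 19.0, 87.0 and 0 CPM in the same 5 gastruloids (1.92 ± 0.76, adjusted p = 0.174) and Tdgf1 at 155, 85.1, 39.6, 234 and 0 (1.92 ± 0.59, adjusted p = 0.0678, and 0.0313 without the neural gastruloid). These day 4 values rest on 68 cells, and Gdf3, a gene of germ cells, was at 7.5 ± 9.46 CPM in them against 0.642 ± 0.995 at day 3.5; its part in the result was not tested. Primitive Streak had shrunk from 13.2 ± 5.81% to 1.03 ± 0.76% of the cells between these days, and Nodal over whole gastruloids differed by -0.01 ± 0.38 over both classes.

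**Figure D5:**
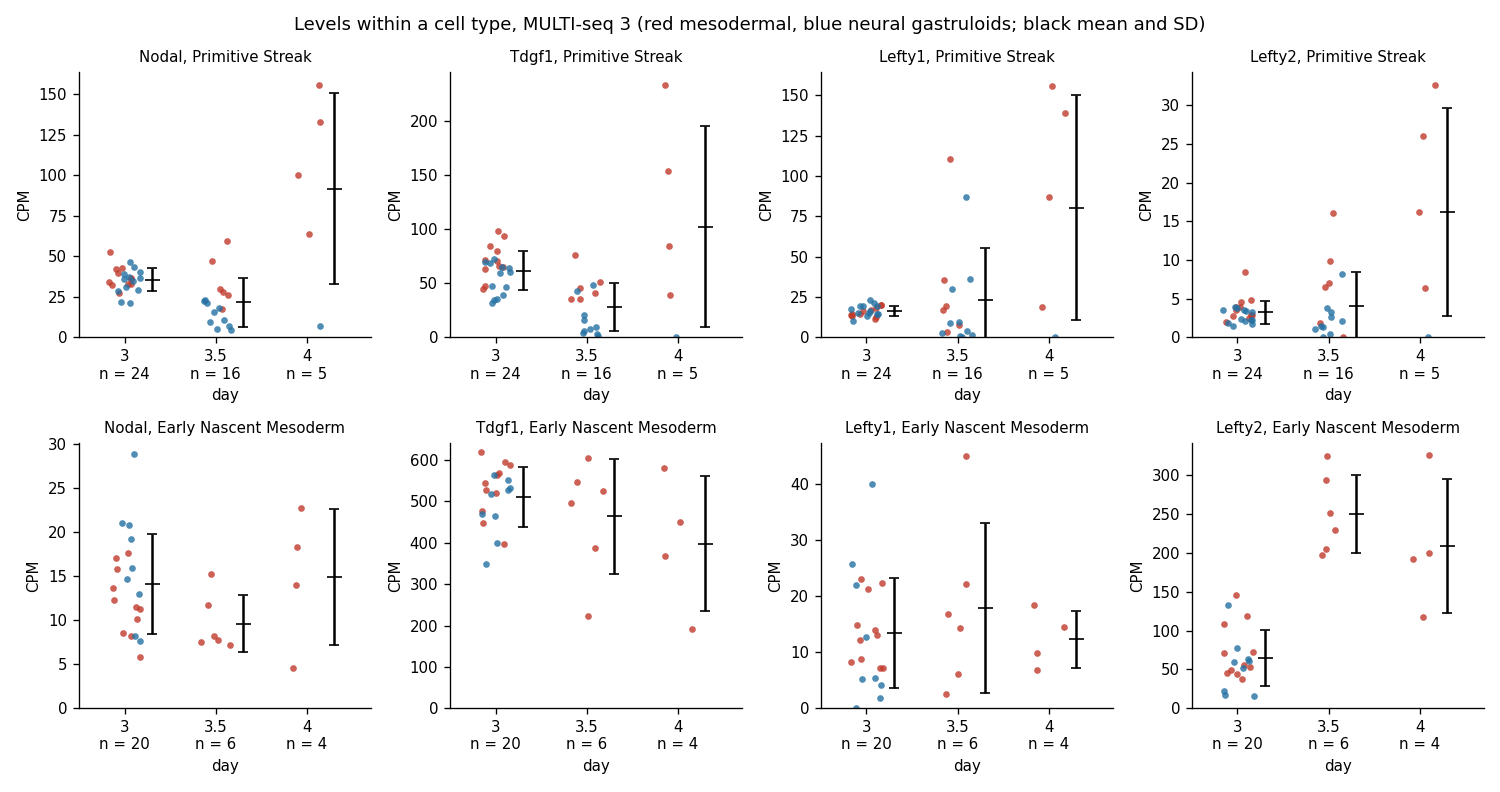
Level of Nodal, Tdgf1, Lefty1 and Lefty2 in Primitive Streak (top) and Early Nascent Mesoderm cells (bottom) of each gastruloid of MULTI-seq 3 at days 3, 3.5 and 4 in CPM, with mean and SD bars cut at 0; points are gastruloids with at least 10 cells of the type, red mesodermal and blue neural. Nodal in Primitive Streak has means of 35.7, 21.6 and 91.8 CPM, and 1 neural gastruloid of day 4 stays at 6.93 CPM.

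Early Posterior PSM cells, the posterior mesoderm that will form somites, had 3 of 5 tested members lower at day 4 than at day 3.5. The gastruloids compared were 6 mesodermal and 7 neural at day 3.5, and 14 and 2 at day 4. The part of class in these differences was not tested. Lefty2 fell from 19.7 ± 10.2 to 11 ± 10.0 CPM (-0.81 ± 0.29, adjusted p = 0.0288), Tdgf1 from 28.1 ± 19.0 to 10.6 ± 8.50 (-1.42 ± 0.33, 0.00104) and Foxh1 from 5.51 ± 2.80 to 2.87 ± 1.65 (-0.62 ± 0.19, 0.00786) in 13 and 16 gastruloids in edgeR. In these cells 38.2% of 9605 genes changed and 18.5% were lower. All 16 gastruloids of day 4 were below the day 3.5 median for Tdgf1. In Early Nascent Mesoderm, where 0.571% of genes changed, Lefty2 and Tdgf1 differed by -0.24 (adjusted p = 0.852) and -0.29 (0.862).

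Between days 4.5 and 5, Cer1 fell within somitic cells. It went from 28.1 ± 15.3 to 9.61 ± 3.60 CPM in Mature Somites (13 and 16 gastruloids, -1.73 ± 0.24, adjusted p = 5.79e-06, edgeR), where 13.8% of 10019 genes changed and 7.55% were lower. In Somites it went from 136 ± 50.4 to 74.2 ± 31.0 CPM (10 and 12 gastruloids, -0.87 ± 0.22, adjusted p = 0.0301, edgeR), where 3.48% of 6146 genes changed and 1.63% were lower. All 16 and all 12 gastruloids of day 5 lay below the day 4.5 medians. Late Anterior PSM did not pass (-0.49, adjusted p = 0.31), where 2.73% did. In MULTI-seq 2, between days 4 and 4.5, Cer1 differed by -0.66 in Mature Somites (adjusted p = 0.644) and -0.09 in Somites (0.979), where 0.499% and 0.522% of genes passed.

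Days in separate pools were compared in the same way, a choice made after seeing the data, and 6 of 17 tests of members passed, 1 of them higher. That 1 was Lefty2 in Early Nascent Mesoderm, at 16.0 to 145 CPM in 20 gastruloids of day 3 (median 57.6) and 197 to 325 CPM in 6 of day 3.5 (median 240), with no overlap (1.64 ± 0.24, adjusted p = 4.19e-06, edgeR), where 45.1% of genes changed, 22.6% higher and 22.5% lower. The 6 of day 3.5 were all mesodermal, whereas those of day 3 were of both classes. Nodal fell in the same cells from 14 ± 5.67 to 9.61 ± 3.23 CPM (-0.60 ± 0.23, adjusted p = 0.027). In Primitive Streak, where 62.3% of genes changed and 29.4% were lower, Nodal fell from 35.7 ± 7.31 to 21.6 ± 14.9 CPM (-0.81 ± 0.18, adjusted p = 0.000176, edgeR) and Tdgf1 from 61.8 ± 18 to 27.9 ± 22.3 (-1.20 ± 0.24, 4.73e-05). Tdgf1 fell from 66.8 ± 25.1 to 28.1 ± 19.0 CPM in Early Posterior PSM (-1.28 ± 0.28, adjusted p = 0.000576), where 50.2% changed and 25.5% were lower. Cer1 fell from 60.0 ± 13.1 to 28.1 ± 15.3 CPM in Mature Somites from day 4 to day 4.5 (-0.75 ± 0.23, adjusted p = 0.0118), where 50.0% changed and 26.5% were lower.

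Pairs of members were also followed over single gastruloids of 1 day. Classes form separate clusters, so correlations were computed within each class at days 3 and 3.5, a choice made after seeing the data, and 0 of 84 pairs passed after Benjamini-Hochberg adjustment. The smallest adjusted p was 0.0696, shared by several pairs such as Lefty1 and Lefty2 in the 10 neural gastruloids of day 3.5 (r = 0.855, permutation p = 0.00161, rho = 0.794, permutation p = 0.00892, and r = 0.825 without the 2 gastruloids farthest from the median). In Primitive Streak cells at day 3, 0 of 42 pairs within a class passed. Nodal and Tdgf1 had r = 0.265 in the 11 mesodermal gastruloids (permutation p = 0.434, rho = 0.336, permutation p = 0.315, adjusted p = 0.792) and r = 0.720 in the 13 neural ones (permutation p = 0.0052, rho = 0.747, permutation p = 0.00445, adjusted p = 0.218). Leaving out the 2 with the most extreme Nodal levels, these r became -0.18 and 0.532.

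The wider pathway was read from 30 genes: 5 receptors and co-receptors, 2 ligand-processing enzymes, 3 other ligands of the same receptors, 3 SMADs, 9 inhibitors and 8 known targets of Nodal signalling. From day 3.5 to day 4, 14 of 26 tested genes rose and 5 fell, where 60.3% of all genes changed. From day 3 to day 3.5, 7 rose and 13 fell of 26 tested, where 74.6% of all genes changed. The comparison of the classes at day 3.5 gave 1 gene higher and 17 lower in neural gastruloids of 26 tested, where 41.6% of all genes differed.

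The known targets were followed over all gastruloids, whose mix of classes changed between days as given above. From day 3 to day 3.5, 7 of 8 fell, where 74.6% of all genes changed and 35.5% were lower (median -1.72 against 0.03 over all genes). Among them were Mesp1, a gene of nascent mesoderm (71.4 ± 50.3 to 17.5 ± 25.0 CPM, -2.04 ± 0.44, adjusted p = 7.95e-05), Eomes, a T-box gene of mesoderm and endoderm (41.8 ± 22.8 to 10.2 ± 13.5, -2.04 ± 0.42, 4e-05), and Foxa2, of endoderm and midline (21.2 ± 10.4 to 5.41 ± 3.59, -2.01 ± 0.23, 6.79e-10), in edgeR. Sox17 did not pass. From day 3.5 to day 4, 3 of 8 rose and 1 fell, where 60.3% of all genes changed. Sox17, a gene of definitive endoderm, rose from 3.89 ± 5.45 to 29.4 ± 17.7 CPM (2.70 ± 0.51, adjusted p = 4.5e-05) and Foxa2 from 5.41 ± 3.59 to 19.8 ± 13.2 (1.76 ± 0.35, 8.65e-05). Mixl1, a gene of the streak, fell from 31.2 ± 26.7 to 8.11 ± 6.97 (-1.99 ± 0.48, 0.000727).

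From day 4 to day 4.5, 6 of 8 targets fell in MULTI-seq 3, where 66.1% of all genes changed and 33.8% were lower. The largest change was in Eomes (24.8 ± 25.4 to 1.07 ± 1.41 CPM, -4.24 ± 0.64, adjusted p = 8.72e-07, edgeR). In MULTI-seq 2, with both days in 1 pool, 4 of 7 fell, where 7.19% changed and 4.22% were lower. The largest change there was in Gsc, a gene of the organizer region (9.94 ± 9.93 to 1.41 ± 0.846, -2.78 ± 0.47, adjusted p = 0.000892, edgeR). Between days 4.5 and 5, 0 of 6 targets passed in edgeR, where 13.3% of all genes did. Between the classes, all called targets were lower in neural gastruloids in each of the 8 comparisons: 6 of 8 at day 3 (7.81% of all genes were lower), 8 of 8 at day 3.5 (21.2%), 6 of 8 at day 4 (19.2%), 7 of 8 at day 4.5 (23.2%) and 7 of 7 at day 5 (21.3%) of MULTI-seq 3. In MULTI-seq 2 these were 5 of 8 at day 4 (9.64%) and 6 of 6 at day 4.5 (19.8%), and 3 of 3 at day 5 of MULTI-seq 1 (15.4%). Gsc, Mixl1, Eomes, Lhx1, Foxa2, Sox17 and Mesp1 were also among the marker genes checked for streak, mesoderm, endoderm or notochord types. The classes describe the makeup of these same gastruloids, so lower levels of such genes in neural ones are conditional on the classes. The part of makeup in these differences was not tested. At day 3 Eomes was at 61.3 ± 18.8 CPM in mesodermal and 25.4 ± 7.81 in neural gastruloids, without overlap (-1.30 ± 0.19, adjusted p = 3.89e-05, edgeR), a day on which Nodal did not pass. At day 3.5 it was at 24.1 ± 12.8 and 1.86 ± 2.07 (-3.55 ± 0.48, 4.02e-05) and Lhx1, a gene of the anterior streak and mesoderm, at 95.3 ± 47.4 and 7.65 ± 7.54 (-3.55 ± 0.48, 4.65e-05), both without overlap.

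Among the receptors and co-receptors, Cfc1 and Acvr2a had the largest differences that are given here. Cfc1 (Cryptic), the second EGF-CFC co-receptor, rose from 2.63 ± 3.93 to 12.8 ± 10.5 CPM between days 3.5 and 4 (2.10 ± 0.50, adjusted p = 0.000635, edgeR), days with different mixes of classes, and was lower in neural gastruloids at day 3.5 (5.57 ± 5.42 and 0.865 ± 0.456, -2.84 ± 0.54, 0.000679), without overlap. The type II receptor gene Acvr2a was higher in neural gastruloids at day 5, at 14.2 ± 1.35 and 24.2 ± 1.35 CPM in MULTI-seq 3 (0.81 ± 0.06, adjusted p = 3.35e-07) and 12.4 ± 2.05 and 24.9 ± 4.60 in MULTI-seq 1 (1.01 ± 0.11, 5.94e-08), without overlap in either. All 3 SMADs rose from day 3 to day 3.5 and from day 3.5 to day 4, with medians of 0.55 and 0.18 on the log2 scale, steps at which 74.6% and 60.3% of all genes changed. Of 8 tested inhibitors, 4 rose and 2 fell between days 3.5 and 4, where 60.3% of all genes changed and 31.1% were higher, and Smad7, an inhibitory SMAD that TGF-β signals induce, went from 7.86 ± 3.22 to 16.8 ± 8.09 CPM (1.05 ± 0.22, adjusted p = 0.000181, edgeR). Between days 3 and 3.5, 1 rose and 5 fell, where 74.6% of all genes changed and 35.5% were lower, led by Skil, a SMAD co-repressor (39.9 ± 3.77 to 22.1 ± 5.13, -1.0 ± 0.08, 2.69e-14), which did not overlap.

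Likeness of pattern was measured as Pearson's r of log2(CPM + 1) over 23 cell types among 11556 genes, a description over types that share libraries. The gene most like Nodal was its inhibitor Lefty1 (r = 0.913), followed by Ccno (0.881) and Chrna9 (0.876), and Ccno was also first for Lefty1 (0.940). Lefty2 was most like Tdgf1 (0.884), and Tdgf1 was most like the targets Gsc (0.924) and Eomes (0.922). Cer1 was most like Dpf3 (0.876), Twist1 (0.857) and Mdga1 (0.853). Foxh1 was most like Pcbp2 (0.943), Cep85 (0.890) and Zfp830 (0.887), over types whose Foxh1 levels include lanes of different Foxh1 yield. By rank correlation, 3 of these 18 genes (the top 3 of each of the 6 members) stayed among the top 3.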

How the data were processed

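The authors deposited UMI count matrices of 18 lanes used here (10x 3′ chemistry, per the labels' protocols) and a table of final cells with cell type, gastruloid and class. Cell Ranger 6.0.0 and Seurat on build mm10 are named per the submitters' processing notes, but the annotation was not given in the sources used here. Lanes of days 3 and 3.5 of MULTI-seq 2 were not used. The 8 genes, the lists and the tests were chosen with earlier results of these data known.

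Deposited counts of the 53730 cells with a gastruloid call were summed per gastruloid over lanes (at least 30 cells) or per gastruloid and type (at least 10 cells, at least 4 gastruloids per group). Sums were tested with edgeR 4.0.16 in R 4.3.3 (TMM, filterByExpr, robust quasi-likelihood F-test, Benjamini-Hochberg over all genes, threshold 0.05), and a standard error is the log2 change divided by the square root of F. Where nothing says that gastruloids came from separate cultures, p-values measure only the spread between gastruloids of 1 experiment. Final cells with a barcode call of doublet, or without a call of a single gastruloid, were left out of these sums. No other doublet filter was added. At day 3 of MULTI-seq 3, lanes A and B had a gastruloid call in 51.1 and 45.1% of final cells, and a doublet call in 4.22 and 18.8%. The later lanes of MULTI-seq 3 had a gastruloid call in 76.4 to 90.3% of final cells. On simulated counts for day 4 against day 3.5 (13262 genes, 50 per change), 100, 100, 98 and 100% of genes changed by -2, -1, 1 and 2 on the log2 scale were recovered, with 14 false calls. The simulation gave every gene the same dispersion and changed only genes with higher counts. The members differ in counts and spread, so these rates were not measured for them. Alternatives were DESeq2 1.42.0, RLE scaling, no filter, higher cell minimums, class as a term or 1 class alone for days, and leaving out lanes or gastruloids. Correlations used 100000 permutations (scipy 1.17.1). Exact intervals are Clopper-Pearson at 95% and, like the floor of 3 counts, cover counting error only. Named genes were all 8 members, the 3 genes most like each, and up to 3 called genes with the largest change per pathway list and comparison.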

Additional observations from a re-analysis of the deposited data

Results flagged for a closer look

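Of 89 groups of 4 to 10 gastruloids checked, 22 had a highest gastruloid set far apart from the others. Chance gives about 1 in 20 such groups where values follow a normal distribution, which was not checked for these CPM. That rate does not hold where all other gastruloids of a group were at 0, as for Lefty1, Foxh1, Tdgf1, Lefty2 and Gdf3 in some of these groups, since even 1 UMI then sets a gastruloid apart.

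At day 5 of MULTI-seq 1, intermediate gastruloid 18 stood apart for Nodal (8.05 CPM), Tdgf1 (7.05) and Gdf3 (1.01), and neural gastruloid 16 for Nodal (1.70), Lefty2 (0.424), Tdgf1 (4.67) and Gdf3 (0.849). Mesodermal gastruloid 21 stood apart for Lefty1 (12.0) and Lefty2 (1.78), intermediate gastruloid 20 for Lefty1 (6.997) and mesodermal gastruloid 1 for Foxh1 (0.404). In MULTI-seq 2, mesodermal gastruloid 10 of day 4 stood apart for Gdf3 (2.83), mesodermal gastruloid 12 of day 4.5 for Lefty1 (4.66) and Gdf3 (0.173), and neural gastruloid 8 of day 4.5 for Lefty1 (1.11). In MULTI-seq 3 at day 3.5 these were neural gastruloid 6 for Cer1 (1.73) and neural gastruloid 1 for Gdf3 (0.973). At day 4.5 they were neural gastruloids 7 for Nodal (0.736), 1 for Cer1 (20.8) and 11 for Tdgf1 (0.278). At day 5 they were mesodermal gastruloid 3 for Lefty1 (2.68) and neural gastruloid 2 for Lefty2 (0.0308).

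Lanes without gastruloid calls, which entered no test, also held UMIs of 7 members above the limit that a count of 0 allows. The day 3 lane of the 10X experiment (3058 cells) had Nodal at 54.4, Lefty1 at 75, Lefty2 at 96.5, Cer1 at 5.65, Tdgf1 at 263, Foxh1 at 0.734 and Gdf3 at 0.770 CPM. The day 4 lane (2440 cells) had Nodal at 3.59, Lefty1 at 2.34, Lefty2 at 2.21, Cer1 at 35.2, Tdgf1 at 6.47, Foxh1 at 0.239 and Gdf3 at 0.160 CPM. Pool C of MULTI-seq 2 had, in lanes 1 and 2, Nodal at 3.55 and 2.78, Lefty1 at 2.05 and 1.03, Lefty2 at 4.54 and 2.70, Cer1 at 11.6 and 16.6, Tdgf1 at 6.05 and 4.19, Foxh1 at 3.50 and 0.583 and Gdf3 at 0.0933 and 0.233 CPM.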

How the results depend on the processing

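The larger moves in the counts of members that passed, against those reported, were these. Without a filter on low counts they were 1 (day 5 against 4.5), 5 (day 4.5 against 4, MULTI-seq 2), 3, 3, 4 and 2 (classes at day 4.5 and 5 of MULTI-seq 3, day 4.5 of MULTI-seq 2 and day 5 of MULTI-seq 1), and 2 and 1 between experiments at days 4.5 and 5, since more members were then tested. DESeq2 gave 6 and 2 (classes at days 4 and 5, MULTI-seq 3) and 5 (day 4, MULTI-seq 2). A minimum of 100 cells gave 4 for day 4.5 against 4 of MULTI-seq 2. Without lane B or lane C, day 4 against 3.5 gave 2 each. The classes at day 5 of MULTI-seq 3 gave 2 without lane A and 0 without lane B. Those of MULTI-seq 2 gave 0 without lane 2 or 3 at day 4 and 1 without lane 2 at day 4.5. Leaving out 1 gastruloid gave 1 to 1 (day 4, MULTI-seq 3), 1 to 3 (day 5) and 0 to 0 (day 4, MULTI-seq 2). Shares at or above 10% numbered 43 and 15 without thinning and at 3000 UMIs. Pooled over classes 22 of 63 correlations passed, within classes 0 did, and 3 genes most like a member were kept by rank. Chosen after seeing that the mix of classes differs between days, class as a term gave 4 (day 4 against 3.5, where 47.4% of all genes passed), 1 (day 5 against 4.5, 17.9%) and 4 (day 3.5 against 3, 76.9%). Counts for days in separate pools, here and next, do not set aside the lane-dependent Foxh1. Mesodermal gastruloids alone gave 4, 1, 4 and 5 (day 4 against 3.5, day 5 against 4.5, and day 4.5 against 4 of MULTI-seq 2 and of MULTI-seq 3), and neural ones alone 5 (day 3.5 against 3, 70.0%). There Lefty2 reversed, from 0.19 over both classes, which did not pass, to -1.10 in neural gastruloids. Foxh1 at day 4 against 3.5 turned from 0.36 to -0.21 with class as a term, neither of which passed. No value that passed, here or as reported, changed sign otherwise. The causes were not tested. The class comparison at day 4 of MULTI-seq 2 could not be fitted with a minimum of 100 cells. No paired analysis was possible because replicate numbers of the labels number lanes of a pool and not gastruloids. Members under the filter on low counts, Gdf3 in all whole-gastruloid comparisons but 1, were not tested at these depths.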
